A study of Rattus norvegicus with 45 samples.

Results

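Livers of rats given triadimefon for 24 h were set against livers of rats given myclobutanil for 24 h, to ask which genes and functions part these 2 triazole fungicides after a day. The members were the 5 arrays titled as triadimefon at 24 h and the 5 titled as myclobutanil at 24 h, which together are 10 of the 45 arrays of the series, and the 5 control arrays at 24 h served as their common baseline. All groups were adult male Sprague-Dawley rats aged 10 weeks, and gavage delivered 175 mg/kg/day for triadimefon and 225 mg/kg/day for myclobutanil. The vehicle of the controls is not given in the sources used here. The doses differ and were stated for the series, so no comparison below is one of equal doses. The labels conflict on numbers: the titles give 5 arrays per group, the series text counts 15 livers, and the labelling protocol speaks of 3 rats per group. The titles were followed, and if arrays shared animals their p-values would be too small.

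Triazole fungicides bind the haem of the fungal sterol demethylase CYP51 and starve the fungus of ergosterol. Mammals use the same enzyme to make cholesterol, and the rodent liver answers many azoles through the nuclear receptors CAR and PXR, which switch on drug-metabolising P450 enzymes and can be followed by liver growth. The 2 molecules share a triazole ring and a chlorinated phenyl group. Triadimefon carries a ketone and a phenoxy ether, while myclobutanil carries a nitrile and a butyl chain.

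Each array gave 1 score per probe set on a log-type scale whose base is not stated. Differences below are triadimefon minus myclobutanil in score units, and 1 unit is 2-fold if the base is 2 and 2.72-fold if the logarithm is natural. The hepatocyte markers were the brightest of the marker lists, and the mean score of the 14 measured ran from 3.49 to 3.90 on the triadimefon arrays, from 3.39 to 3.74 on the myclobutanil arrays and from 3.61 to 4.36 on the control arrays. The medians of the 15 arrays at 24 h lay between -0.010 and 0.021. Their bright ends were not equal: the 99th percentile ran from 2.77 to 3.08 with triadimefon, from 2.81 to 3.05 with myclobutanil and from 2.88 to 3.52 in controls, where control 2 was the highest. Triadimefon 5 also stood apart: of 26 single values that lay far from the rest of their group among 109 genes examined, 11 were on triadimefon 5 and 7 on control 2. Calls that depend on triadimefon 5 are given with and without it, and the counts of genes against the controls with and without control 2. A gene was called at an adjusted p under 0.05 in limma, fitted on all 45 arrays, and where a gene had several probe sets the one with the highest mean stood for it.

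Of 14217 genes, 63 were higher with triadimefon than with myclobutanil (0.443%) and 174 were lower (1.22%). The differences were small: the median size among called genes was 0.203 units, the range was 0.079 to 0.667, and 4 genes reached the size that is 1.5-fold if the base is 2. The higher genes included macrophage markers, interferon-induced genes and enzymes of sterol and fatty acid metabolism. The lower genes included those of DNA replication, tubulin and glutathione synthesis. In 171 genes the 5 triadimefon arrays all lay above the 5 myclobutanil arrays (1.20%), and in 412 they all lay below (2.90%). After quantile normalization 234 genes were higher (1.65%) and 577 were lower (4.06%), and all 237 genes called on the deposited scores were called there too.

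The number of calls depended on which arrays entered the fit. With the 10 arrays of the 2 groups alone 145 genes were called, 86 of them among the 237. With the 15 arrays at 24 h alone 6 were called, and 161 when control 2 was left out of those 15. All 237 genes kept their direction in each of these fits. Over all 31042 probe sets, 328 were called, 160 without myclobutanil 1, 159 without myclobutanil 2, 201 without myclobutanil 5, 178 without triadimefon 2 and 199 without triadimefon 5. Of the 237, 78 stayed called in all 10 repeats that each left out 1 of the 10 arrays, and in 153 the arrays of the groups did not overlap. Against the shared controls, triadimefon raised 369 genes (2.60%) and lowered 1182 (8.31%), and myclobutanil raised 558 (3.92%) and lowered 975 (6.86%). In probe sets, triadimefon changed 2478, but 1159 without control 2 and 1484 without triadimefon 1, and myclobutanil changed 2628, but 1717 without myclobutanil 2. Without control 2, triadimefon raised 254 genes (1.79%) and lowered 454 (3.19%), and myclobutanil raised 625 (4.40%) and lowered 429 (3.02%). Counts of list members without control 2 were chosen after seeing the data.

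**Figure D1:**
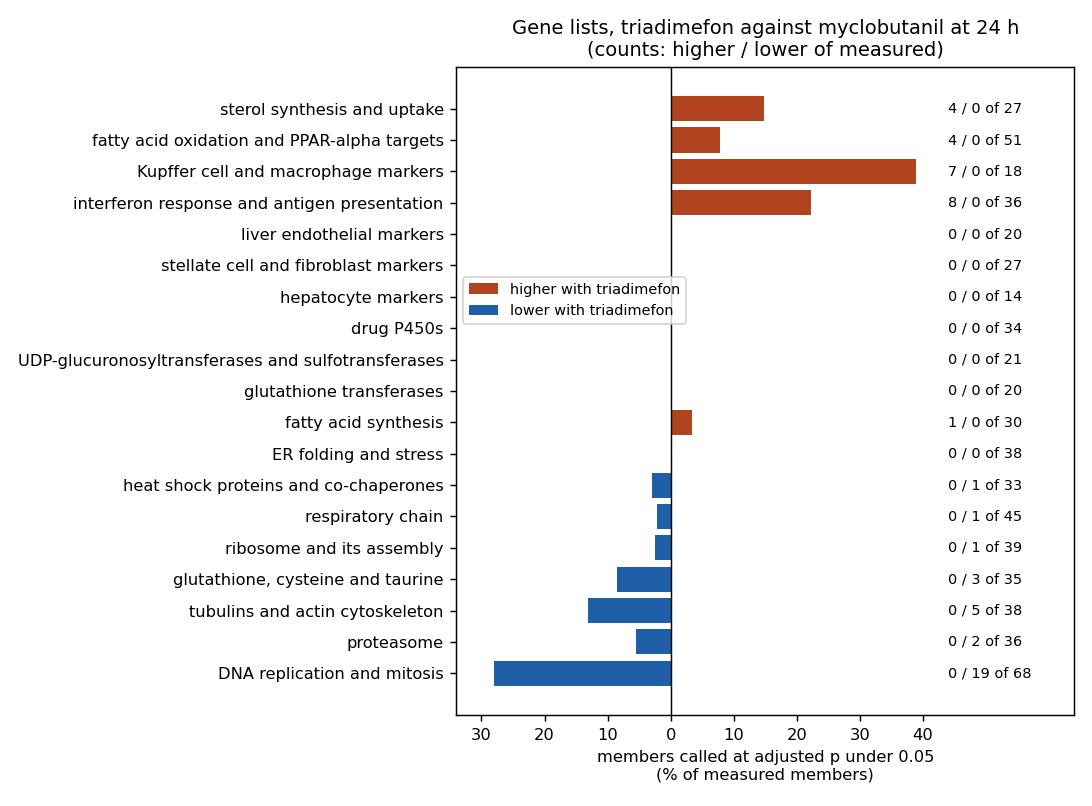
Share of measured members of 19 gene lists that were called higher (red, right of 0) or lower (blue, left of 0) with triadimefon than with myclobutanil at 24 h, in percent, with the counts printed beside the bars. Macrophage markers (7 of 18) and interferon genes (8 of 36) lie to the right and DNA replication and mitosis (19 of 68) to the left, while drug P450s have no called member.

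Genes that copy DNA were lower with triadimefon than with myclobutanil. Of 68 measured genes of DNA replication and mitosis 19 were lower and 0 higher, the median difference was -0.173 against 0.003 over all genes, and 64 of the 68 differences were below 0. Against the shared controls 21 of the 68 rose and 0 fell with triadimefon, while 61 rose and 0 fell with myclobutanil. Of all genes 2.60% rose with triadimefon and 3.92% with myclobutanil. Without control 2, 14 of the list rose with triadimefon (20.6%, against 1.79% of all genes) and 62 with myclobutanil (91.2%, against 4.40%). Pcna, the sliding clamp of DNA polymerases, had scores of 1.74, 1.14, 1.55, 1.55 and 1.42 on the triadimefon arrays, 1.97, 1.89, 1.82, 1.81 and 1.97 on the myclobutanil arrays and 1.13, 1.39, 1.2, 1.16 and 1.42 on the control arrays. Every triadimefon array lay below every myclobutanil array. The difference was -0.41 ± 0.07 (SE; adjusted p = 0.002). Mcm6, a subunit of the helicase that opens replication origins, was picked after its values were seen and had 0.56, -0.16, 0.21, 0.33 and -0.01 with triadimefon, 0.52, 0.70, 0.45, 0.49 and 0.78 with myclobutanil and -0.21, -0.13, -0.22, -0.18 and 0.01 in controls. Triadimefon 1 reached the range of myclobutanil and triadimefon 2 and 5 lay near the controls, so the groups overlapped. The difference was -0.40 ± 0.08 (adjusted p = 0.005).

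Other replication genes were lower too. Rrm1, which makes deoxynucleotides, differed by -0.28 ± 0.05 (adjusted p = 0.002), Rfc4, a subunit of the loader of the clamp, by -0.27 ± 0.04 (0.002) and Dnmt1, which copies DNA methylation after replication, by -0.17 ± 0.03 (0.0029). The helicase subunits Mcm2 (-0.24, adjusted p = 0.0036) and Mcm7 (-0.30, 0.0032), also picked after their values were seen, passed as well. These 7 genes stayed called in all 10 repeats with 1 array left out. The mitotic kinase Cdk1 (-0.36, adjusted p = 0.11) and the proliferation marker Mki67 (-0.32, 0.11) did not pass, and passed without myclobutanil 4 (0.042 and 0.038). Cdk1 scored 0.77, 0.04, 0.60, 0.70 and 0.43 with triadimefon, 1.23, 0.81, 0.60, 0.57 and 1.14 with myclobutanil and 0.11, 0.12, -0.01, 0.12 and 0.59 in controls, so its groups overlapped. Ccnd1, a cyclin of early G1, ran the other way without passing (0.30, adjusted p = 0.076, and 0.023 without triadimefon 3), and it rose against the controls by 0.53 ± 0.09 with triadimefon (adjusted p = 9e-05) and differed by 0.23 ± 0.09 with myclobutanil (0.085).

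The replication genes varied more between arrays in the 2 treated groups at 24 h than in the other groups, the 24 h controls included. The median SD of the 68 genes was 0.129 on the triadimefon arrays and 0.1 on the myclobutanil arrays, against 0.049 to 0.084 in the other 7 groups of the series. Fitted on the 10 arrays alone, 0 of the 68 passed in limma, with adjusted p of 0.067 for Pcna, 0.085 for Rrm1, 0.09 for Rfc4 and 0.18 for Mcm6, so the list's calls rest on the spread taken over all 45 arrays. The count of 19 became 10 without triadimefon 2, 12 without myclobutanil 1, 33 without triadimefon 1 and 33 without myclobutanil 4, and 30 after quantile normalization.

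**Figure D2:**
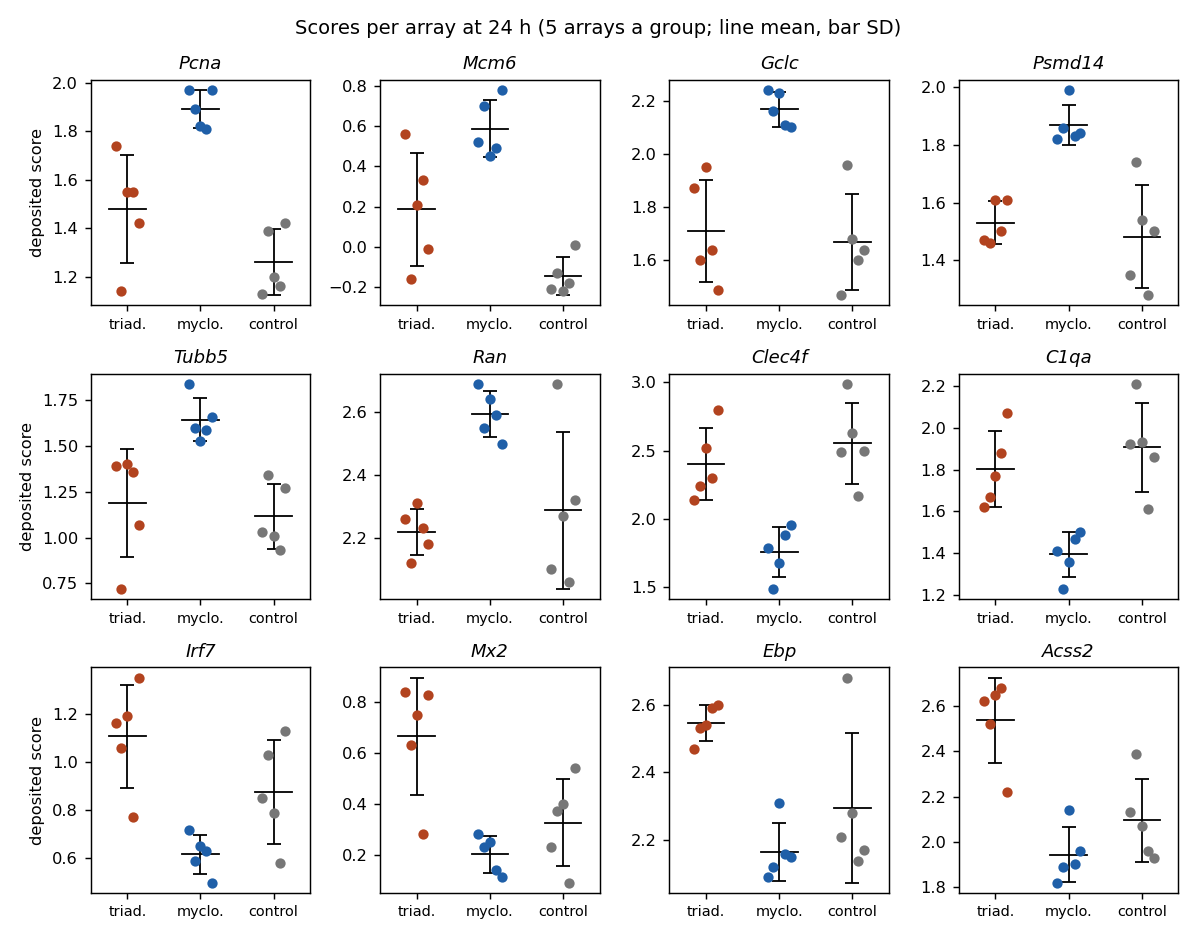
Deposited scores of 12 genes on each of the 5 triadimefon, 5 myclobutanil and 5 control arrays at 24 h, with the group mean as a line and its SD as a bar. The scales differ between panels. Pcna, Gclc, Psmd14, Tubb5 and Ran are lower with triadimefon than with myclobutanil without overlap, Clec4f, C1qa, Irf7, Ebp and Acss2 are higher without overlap, and the values of Mcm6 overlap.

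The promoters of replication genes carry letters that were counted here because E2F factors and the CCAAT-binding factor NF-Y are known to act on such genes. Sequences are from RefSeq on the build GRCr8, the window ran from 250 bases before to 50 bases after each gene's start, and both strands were searched. Of the 68 genes 59 had a promoter in that table. TTTGGCGC stood in 8 of the 59 (13.6%), against 0.521% of 27457 promoters, TTTCCCGC in 4 (6.78%, against 1.03%) and CCAAT in 42 (71.2%, against 37.7%). A match is a description of these letters and no evidence of binding. Of other letters searched, the antioxidant response element TGACNNNGC stood in 7 of 32 proteasome promoters (21.9%) and 4 of 28 glutathione promoters (14.3%), against 12.2% of all, and the PU.1 site GAGGAAGT in 1 of 14 macrophage promoters (7.14%), against 2.44%. Mcm6 is shown because it holds both kinds, from -150 to -31 relative to its start at chr13:42404383-42404502 on the minus strand, with TTTGGCGC and CCAAT (read as ATTGG) in capitals.
Mcm6: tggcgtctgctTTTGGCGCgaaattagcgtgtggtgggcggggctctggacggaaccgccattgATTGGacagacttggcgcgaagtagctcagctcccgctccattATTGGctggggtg

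Tubulin and other cytoskeletal genes were lower with triadimefon at single members rather than as a list. Of 38 measured genes of tubulin and actin 5 were lower and 0 higher, and the median difference was -0.005. Tubb5, a beta tubulin, had 1.39, 0.72, 1.40, 1.36 and 1.07 with triadimefon, 1.84, 1.60, 1.53, 1.59 and 1.66 with myclobutanil and 1.03, 1.34, 1.01, 0.93 and 1.27 in controls. All triadimefon arrays lay below all myclobutanil arrays, and triadimefon 2 lay below every control array. The difference was -0.45 ± 0.09 (adjusted p = 0.0051), and a second probe set of Tubb5 gave -0.39 (0.0067). Tuba4a, an alpha tubulin, differed by -0.45 ± 0.10 (adjusted p = 0.013), Tpm1, which lines actin filaments, by -0.24 ± 0.05 (0.0098), Tubb4b by -0.37 ± 0.10 (0.048) and Tubg1, which nucleates microtubules, by -0.13 ± 0.03 (0.033). Tubb5 and Tpm1 stayed called in all 10 repeats, though of the other probe sets of Tpm1 only 1 passed (-0.27, 0.0066) and the rest lay between -0.02 and 0. Tuba4a lost its call without triadimefon 5 (adjusted p = 0.051), Tubg1 without any myclobutanil array or triadimefon 2 or 5 (up to 0.14), and Tubb4b kept it only without triadimefon 3 or myclobutanil 4 (otherwise up to 0.17). The count of 5 became 3 without myclobutanil 1, 2 or 5 or triadimefon 2, 2 without triadimefon 5, and 3 in the fit on the 10 arrays.

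Ran, Xpo1 and Kpnb1 were lower with triadimefon. Ran, the GTPase that gives transport through the nuclear pore its direction, had 2.26, 2.12, 2.31, 2.23 and 2.18 with triadimefon, 2.69, 2.55, 2.64, 2.59 and 2.5 with myclobutanil and 2.10, 2.69, 2.27, 2.06 and 2.32 in controls. The 2 treated groups did not overlap, and control 2 was the only control array within the range of myclobutanil. The difference was -0.38 ± 0.09 (adjusted p = 0.018), with the call lost without myclobutanil 1 or triadimefon 2 (up to 0.067). Xpo1, an export receptor (-0.27 ± 0.06, adjusted p = 0.0093), and Kpnb1, an import receptor (-0.21 ± 0.04, 0.0055), were lower and stayed called in all 10 repeats. Their dimmer probe sets gave -0.10 (0.32) for Xpo1 and -0.12 (0.025) for Kpnb1. Both were picked after their values were seen, as was Xrcc5, a subunit of Ku in DNA end joining, which had the smallest p of all genes. Xrcc5 scored 0.23, 0.27, 0.29, 0.26 and 0.19 with triadimefon, 0.44, 0.42, 0.48, 0.40 and 0.45 with myclobutanil and 0.34, 0.38, 0.38, 0.33 and 0.37 in controls. The controls lay between the 2 treated groups with no overlap. The difference was -0.19 ± 0.03 (adjusted p = 1.3e-04), its call held in all 10 repeats and in the fits on 10 arrays (0.015) and on 15 arrays (0.0073), and a dimmer probe set gave -0.04 (0.7).

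Of 36 measured proteasome genes 2 were lower and 0 higher, with a median difference of -0.147 and 34 differences below 0. After quantile normalization 25 were lower. Compared with the shared controls 1 of 36 rose with triadimefon and 17 rose with myclobutanil, and 0 fell with either. The shares of all genes that rose were 2.60% with triadimefon, near that of the list, and 3.92% with myclobutanil. Without control 2, 1 rose with triadimefon (2.78%, against 1.79% of all genes) and 24 with myclobutanil (66.7%, against 4.40%). Psmd14, the deubiquitinase of the proteasome lid, had 1.47, 1.46, 1.61, 1.5 and 1.61 with triadimefon, 1.82, 1.86, 1.99, 1.83 and 1.84 with myclobutanil and 1.35, 1.74, 1.54, 1.28 and 1.5 in controls. The treated groups did not overlap, and the triadimefon arrays lay within the range of the controls. The difference was -0.34 ± 0.06 (adjusted p = 0.0025), and 2 further probe sets gave -0.29 (0.0027) and -0.18 (0.017). Psmd13, another lid subunit, differed by -0.18 ± 0.03 (adjusted p = 0.0043). Both stayed called in all 10 repeats. Without triadimefon 5 the count was 4.

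Enzymes of glutathione synthesis were lower with triadimefon. Of 35 genes of glutathione, cysteine and taurine metabolism 3 were lower and 0 higher, and the median difference was 0.023, so the list as a whole did not lean down. Gclc, the catalytic subunit of glutamate-cysteine ligase, which sets the pace of glutathione synthesis, had 1.87, 1.60, 1.95, 1.64 and 1.49 with triadimefon, 2.24, 2.16, 2.23, 2.11 and 2.10 with myclobutanil and 1.47, 1.96, 1.68, 1.60 and 1.64 in controls. The treated groups did not overlap, and the triadimefon arrays spread over the range of the controls. The difference was -0.45 ± 0.08 (adjusted p = 0.0027), and a second probe set gave -0.39 (0.0066). Gclc rose against the controls by 0.50 ± 0.08 with myclobutanil (adjusted p = 5.8e-05) and differed by 0.04 ± 0.08 with triadimefon (0.82). Gss, which completes glutathione, differed by -0.22 ± 0.05 (adjusted p = 0.013), and Mpst, a sulfur transferase, by -0.28 ± 0.07 (0.026). Gclc and Gss stayed called in all 10 repeats. Mpst lost its call without myclobutanil 1, 2 or 3 or triadimefon 5 (up to 0.11). The modifier subunit Gclm (-0.16, adjusted p = 0.33) and the quinone reductase Nqo1 (-0.18, 0.84) did not pass. Of 24 targets of NRF2, the regulator of antioxidant genes, Gclc alone was called, though 18 differences were below 0 and the median was -0.1. Against the shared controls 6 rose with triadimefon and 10 with myclobutanil, and 1 fell with each. Without control 2, 5 rose with triadimefon (20.8%, against 1.79% of all genes) and 11 with myclobutanil (45.8%, against 4.40%), and 0 fell with either. Pir, an iron-binding nuclear protein, differed by -0.38 ± 0.10 (adjusted p = 0.045) and kept its call only without myclobutanil 1 or triadimefon 4 (otherwise up to 0.12).

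**Figure D3:**
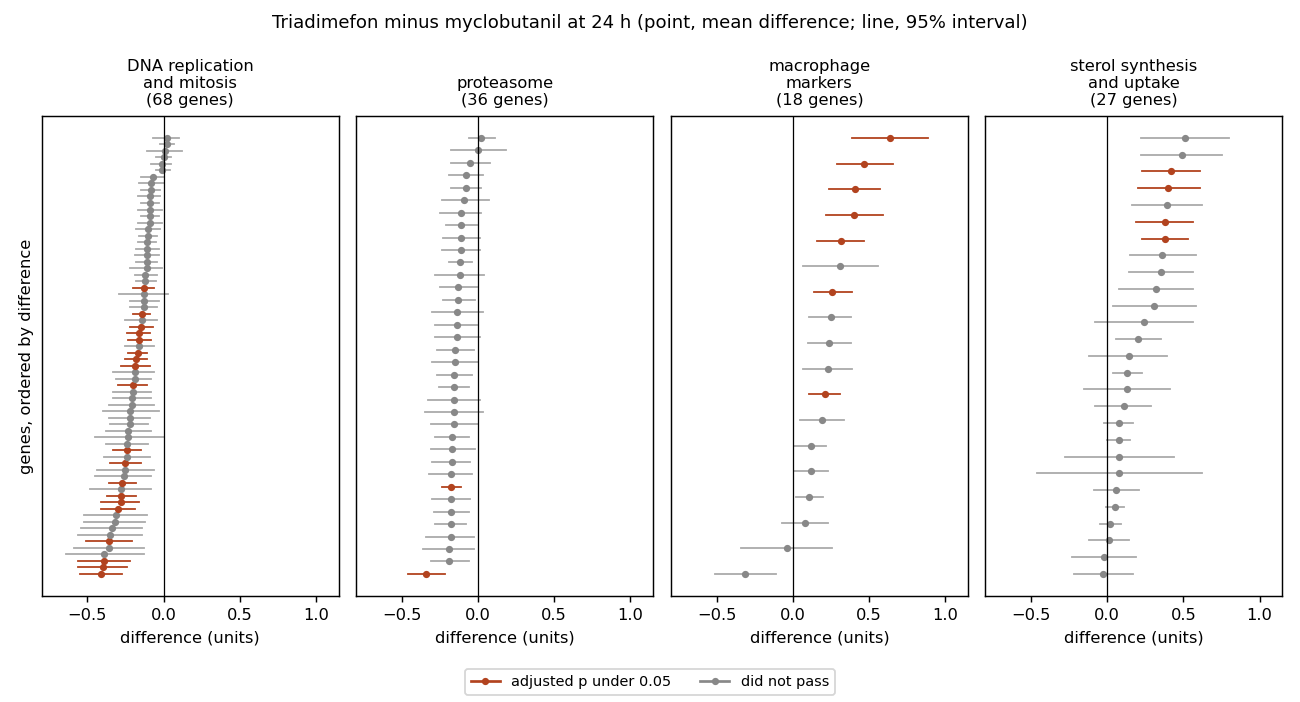
Difference between triadimefon and myclobutanil at 24 h, in score units, for every measured gene of 4 lists, with its 95% interval as a line. Red genes passed at an adjusted p under 0.05 and grey genes did not. Of the differences, 64 of 68 lie below 0 for DNA replication and mitosis, 34 of 36 for the proteasome, and 2 of 18 for macrophage markers and 2 of 27 for sterol genes.

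Markers of Kupffer cells, the resident macrophages of the liver, and of other macrophages were higher with triadimefon than with myclobutanil. Of 18 measured markers 7 were higher and 0 lower, with a median difference of 0.237. Compared with the shared controls 1 of 18 fell with triadimefon and 16 fell with myclobutanil, and 0 rose with either. The shares of all genes that fell were 8.31% with triadimefon, near that of the list, and 6.86% with myclobutanil. Without control 2, 0 fell with triadimefon (against 3.19% of all genes) and 12 with myclobutanil (66.7%, against 3.02%). Clec4f, a receptor found on rat Kupffer cells, had 2.14, 2.24, 2.52, 2.30 and 2.80 with triadimefon, 1.79, 1.49, 1.68, 1.88 and 1.96 with myclobutanil and 2.49, 2.99, 2.63, 2.17 and 2.5 in controls. Every triadimefon array lay above every myclobutanil array, and all but triadimefon 1 lay within the range of the controls. The difference was 0.64 ± 0.12 (adjusted p = 0.0049). C1qa, a chain of complement C1q, had 1.62, 1.67, 1.77, 1.88 and 2.07 with triadimefon, 1.41, 1.23, 1.36, 1.47 and 1.5 with myclobutanil and 1.92, 2.21, 1.93, 1.61 and 1.86 in controls. Its treated groups did not overlap. The difference was 0.41 ± 0.08 (adjusted p = 0.0066). Ctss, a protease of antigen-presenting cells, differed by 0.47 ± 0.09 (adjusted p = 0.0048) and C1qc by 0.40 ± 0.09 (0.017).

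Other macrophage genes picked after their values were seen went both ways. Cfp, the complement protein properdin (0.31 ± 0.05, adjusted p = 0.002), and Axl, a receptor for dying cells (0.24 ± 0.05, 0.0066), were higher. Cd68, a lysosomal protein of macrophages, did not pass (0.24, adjusted p = 0.075, and 0.042 without triadimefon 1). Cd14, a coreceptor for bacterial lipopolysaccharide, had 1.74, 1.65, 1.79, 1.44 and 1.65 with triadimefon, 1.92, 1.86, 2.16, 1.93 and 1.93 with myclobutanil and 1.87, 2.23, 1.93, 1.90 and 2.04 in controls. It lay lower on every triadimefon array than on any myclobutanil array and did not pass (-0.31, adjusted p = 0.13). Gpnmb, a glycoprotein of lysosomes that is among the genes of lowest difference, was lower with triadimefon (-0.41 ± 0.10, 0.025), with the call lost without myclobutanil 1 or 3 or triadimefon 1 or 3 (up to 0.12).

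The mean score of the 18 markers ran from 1.18 to 1.46 on the triadimefon arrays, from 0.967 to 1.14 on the myclobutanil arrays and from 1.19 to 1.68 on the control arrays. In bulk liver RNA, fewer cells of a type and less RNA per cell cannot be told apart. The other cell type lists had few calls: 0 of 20 endothelial, 0 of 27 stellate and 0 of 14 hepatocyte markers were called, which is near the share of all genes, and 1 of 23 T and NK cell markers, Cd4 (0.10, adjusted p = 0.05, just under the threshold), a protein that rat macrophages carry too. Differences were above 0 in 17 of the 20 endothelial, 24 of the 27 stellate and 13 of the 14 hepatocyte markers, with medians of 0.038, 0.037 and 0.054, and in 16 of the 18 macrophage markers. With myclobutanil 6 endothelial and 5 stellate markers fell against the controls, and 1 of each without control 2 (5% and 3.7%, against 3.02% of all genes). The part of these in the macrophage result was not tested. Clec4f, C1qa, Ctss, Cfp and Axl stayed called in all 10 repeats, and C1qc lost its call without myclobutanil 2 or 3 or triadimefon 5 (up to 0.09). Cd4 lost it in 7 repeats, all but those without myclobutanil 1 or 4 or triadimefon 1 (up to 0.18). The list's count of 7 became 3 without myclobutanil 2 or triadimefon 5, 4 without myclobutanil 3 or triadimefon 4, 3 in the fit on the 10 arrays and 11 after quantile normalization.

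Genes induced by interferon were higher with triadimefon. Of 36 genes of the interferon response and antigen presentation 8 were higher and 0 lower, with a median difference of 0.142 and 32 differences above 0. Against the shared controls 3 rose and 0 fell with triadimefon, and 0 rose and 4 fell with myclobutanil. Over all genes 2.60% rose with triadimefon and 6.86% fell with myclobutanil. Without control 2 the count that rose with triadimefon was 3 (8.33%, against 1.79% of all genes). With myclobutanil 1 fell (2.78%, against 3.02%), which is near the share of all genes. Irf7, which drives type I interferon genes, had 1.16, 1.06, 1.19, 0.77 and 1.35 with triadimefon, 0.72, 0.59, 0.65, 0.63 and 0.50 with myclobutanil and 0.85, 1.03, 0.79, 0.58 and 1.13 in controls. The treated groups did not overlap and the controls spanned both. The difference was 0.49 ± 0.10 (adjusted p = 0.0049). Mx2, an antiviral GTPase, had 0.84, 0.63, 0.75, 0.28 and 0.83 with triadimefon, 0.28, 0.23, 0.25, 0.14 and 0.11 with myclobutanil and 0.23, 0.37, 0.40, 0.09 and 0.54 in controls. Triadimefon 4 lay next to the highest myclobutanil array. The difference was 0.47 ± 0.10 (adjusted p = 0.0091), and a dimmer probe set gave 0.13 (0.87).

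Mx1, the related GTPase, differed by 0.30 ± 0.06 (adjusted p = 0.0071), Ifit1, which binds viral RNA, by 0.40 ± 0.09 (0.022) and Slfn4, a Schlafen protein, by 0.52 ± 0.12 (0.025). A dimmer probe set of Slfn4 gave 0.03 (0.76). Slfn4 fell against the controls by 0.51 ± 0.12 with myclobutanil (adjusted p = 0.0064) and differed by 0.01 with triadimefon (0.98), while Ifit1 rose by 0.39 ± 0.09 with triadimefon (0.007) and differed by -0.01 with myclobutanil (0.96). The ubiquitin-like Isg15 (0.37, adjusted p = 0.037) and the RNA sensor Oas1a (0.46, 0.057) were picked after their values were seen, and Oas1a did not pass except without triadimefon 4 (0.57, 0.012). Irf7, Mx2 and Mx1 stayed called in all 10 repeats. Ifit1 lost its call without myclobutanil 2, 3 or 5 or triadimefon 5 (up to 0.12), Slfn4 without myclobutanil 2 or 5 or triadimefon 5 (up to 0.12), and Isg15 kept it only without triadimefon 4 (otherwise up to 0.13). The count of 8 ran from 3, without myclobutanil 2 or 5 or triadimefon 5, to 10 without triadimefon 4. It was 4 without myclobutanil 1 or triadimefon 2 or 3, 5 without myclobutanil 3 or 4 or triadimefon 1, and 3 in the fit on the 10 arrays.

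The interferon-stimulated response element, searched as GAAA, any 2 bases and GAAA on both strands, stood in 19 of the 30 interferon genes with a promoter in the table (63.3%), against 3.77% of all promoters. Of the 8 called genes 4 had a promoter there, and 2 of these held the element, Irf7 and Ifit3. They are printed because they join the element to a called gene, with the element in capitals, on GRCr8. Ifit3 was picked for its element after the calls were seen. The difference, adjusted p and repeats of Ifit3 are not given here, so the strength of its call cannot be judged from this text. Irf7 lies at chr1:205800054-205800133 on the minus strand and Ifit3 at chr1:241527216-241527295 on the plus strand, both from -110 to -31.
Irf7: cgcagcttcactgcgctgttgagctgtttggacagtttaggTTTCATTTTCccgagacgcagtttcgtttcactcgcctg
Ifit3: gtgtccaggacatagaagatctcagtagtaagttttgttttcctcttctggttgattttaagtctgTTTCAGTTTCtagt

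Genes of cholesterol synthesis were higher with triadimefon. Of 27 genes of sterol synthesis and uptake 4 were higher and 0 lower, with a median difference of 0.137 and 25 differences above 0. Against the shared controls 15 rose and 0 fell with triadimefon, and 2 rose and 1 fell with myclobutanil. Of all genes 2.60% rose with triadimefon, and 3.92% rose and 6.86% fell with myclobutanil. Without control 2, 16 of the list rose with triadimefon (59.3%, against 1.79% of all genes). With myclobutanil 2 then rose (7.41%, against 4.40%) and 0 fell. Ebp, a sterol isomerase, had 2.47, 2.53, 2.54, 2.59 and 2.60 with triadimefon, 2.09, 2.12, 2.31, 2.16 and 2.15 with myclobutanil and 2.21, 2.68, 2.28, 2.14 and 2.17 in controls. The treated groups did not overlap, and control 2 lay above both. The difference was 0.38 ± 0.07 (adjusted p = 0.005). Sc5d, the sterol desaturase, had 2.88, 2.93, 2.92, 2.89 and 2.80 with triadimefon, 2.37, 2.36, 2.56, 2.61 and 2.42 with myclobutanil and 2.45, 2.85, 2.42, 2.23 and 2.35 in controls. Its treated groups did not overlap either. The difference was 0.42 ± 0.10 (adjusted p = 0.017), and 2 further probe sets gave 0.40 (0.022) and 0.28 (0.16). Tm7sf2, a sterol reductase, differed by 0.40 ± 0.10 (adjusted p = 0.032) and Hsd17b7, which acts in sterol demethylation, by 0.38 ± 0.09 (0.026). A dimmer probe set of Hsd17b7 gave 0.20 (0.13).

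Cyp51, the mammalian form of the enzyme that triazoles block in fungi, had 3.23, 3.41, 3.36, 3.23 and 3.10 with triadimefon, 2.82, 2.83, 3.09, 2.91 and 2.90 with myclobutanil and 2.70, 3.21, 2.82, 2.55 and 2.68 in controls. The treated groups nearly touched without overlapping. This probe set did not pass (0.35 ± 0.10, adjusted p = 0.084), and the dimmer one did (0.39, 0.0029). Against the controls it rose by 0.47 ± 0.10 with triadimefon (adjusted p = 0.0027) and differed by 0.12 ± 0.10 with myclobutanil (0.54). Sqle, which makes squalene epoxide (0.36, adjusted p = 0.084), Insig2, which restrains sterol synthesis (0.31, 0.34), and its relative Insig1 (0.08, 0.94) did not pass.

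Triadimefon 5 was the lowest of its group for several of these genes. Idi1, an isomerase early in the pathway that was picked after its values were seen, had 2.88, 2.79, 3.02, 2.87 and 2.19 with triadimefon, 2.04, 2.17, 2.44, 2.06 and 2.49 with myclobutanil and 1.75, 2.07, 2.07, 1.73 and 1.68 in controls. A dimmer probe set of Idi1 gave 0.34 on all arrays (adjusted p = 0.28). The difference of the brighter one was 0.51 with triadimefon 5 (adjusted p = 0.066) and 0.65 without it (0.017). Without it Sqle differed by 0.46 (adjusted p = 0.022; 0.44 and 0.039 without myclobutanil 5), Hsd17b7 by 0.47 (0.0085) and Cyp51 by 0.39 (0.085), and 10 of 27 sterol genes were higher. The count was 1 without myclobutanil 1 or 2, 2 without triadimefon 1, 2 or 4, and 9 after quantile normalization. Ebp stayed called in all 10 repeats, Sc5d lost its call without myclobutanil 1 or 2 or triadimefon 2 (up to 0.066), Hsd17b7 without myclobutanil 1, 2 or 4 or triadimefon 1, 2, 3 or 4 (up to 0.10), and Tm7sf2 without myclobutanil 1, 2, 3 or 5 or triadimefon 1, 4 or 5 (up to 0.11).

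The 4 called sterol genes shared a CCAAT box, the site of NF-Y, which works beside SREBP at sterol genes. CCAAT stood in 18 of the 23 sterol genes with a promoter (78.3%), against 37.7% of all promoters, and TCACNCCAC, a form of the sterol regulatory element, in 0 of the 23, against 1.13% of all. In each of the 4 a box is read on the other strand, as ATTGG, and begins at -85 in Ebp, -87 in Sc5d, -86 in Hsd17b7 and -89 in Tm7sf2. Windows around it are printed to show this place, with every box in them in capitals. Ebp holds a further box at -115, and Hsd17b7 and Tm7sf2 hold others outside the printed windows. How often other promoters hold a box at this place was not counted. On GRCr8 they lie at chrX:16971337-16971416 on the plus strand for Ebp, and on the minus strand at chr8:51538323-51538402 for Sc5d, chr13:84722800-84722879 for Hsd17b7 and chr1:212789587-212789666 for Tm7sf2.
Ebp: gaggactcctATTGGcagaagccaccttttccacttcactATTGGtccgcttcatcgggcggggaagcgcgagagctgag
Sc5d: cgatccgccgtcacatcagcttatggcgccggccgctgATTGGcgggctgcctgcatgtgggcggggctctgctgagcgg
Hsd17b7: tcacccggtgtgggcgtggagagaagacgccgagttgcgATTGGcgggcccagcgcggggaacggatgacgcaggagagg
Tm7sf2: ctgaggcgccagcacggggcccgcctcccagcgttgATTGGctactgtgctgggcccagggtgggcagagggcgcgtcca

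Genes of fatty acid oxidation were higher with triadimefon, and much of this rested on triadimefon 5. Of 51 genes of fatty acid oxidation and targets of PPAR-alpha 4 were higher and 0 lower, with a median difference of 0.1. Against the shared controls 11 rose and 1 fell with triadimefon, and 0 rose and 2 fell with myclobutanil. Of all genes 2.60% rose and 8.31% fell with triadimefon, and 3.92% rose and 6.86% fell with myclobutanil. Without control 2, 10 of the list rose (19.6%, against 1.79% of all genes) and 1 fell (1.96%, against 3.19%) with triadimefon. With myclobutanil 2 then rose (3.92%, against 4.40%) and 1 fell (1.96%, against 3.02%), near the shares of all genes. Cyp4a1, a fatty acid hydroxylase that PPAR-alpha induces, had 2.14, 2.32, 2.44, 2.43 and 3.23 with triadimefon, 2.04, 2.05, 1.89, 1.72 and 2.05 with myclobutanil and 2.23, 2.76, 2.51, 2.16 and 2.41 in controls. The treated groups did not overlap and triadimefon 5 was far above the rest. The difference was 0.56 ± 0.13 (adjusted p = 0.017) and 0.38 without that array (0.094). Slc22a5, which takes up carnitine, differed by 0.38 ± 0.08 (adjusted p = 0.0072) and by 0.25 without it (0.021). Crat, a carnitine acyltransferase (0.33, adjusted p = 0.041), and Pex11a, which divides peroxisomes (0.29, 0.025), lost their calls without it, at 0.22 (0.21) and 0.19 (0.12). A dimmer probe set of Pex11a gave 0.18 on all arrays (0.19). Cpt1a, the gate of mitochondrial fatty acid uptake, did not pass (0.59, adjusted p = 0.051; it passed without triadimefon 1, 3 or 4, down to 0.0088), and its second probe set did (0.57, 0.025).

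The count of 4 was 1 without triadimefon 5, 2 without myclobutanil 1, 3 or 5, 8 without triadimefon 1, 0 in the fit on the 10 arrays and 12 after quantile normalization. Slc22a5 stayed called in all 10 repeats but did not pass in the fit on the 10 arrays (adjusted p = 0.20). Its SD was 0.30 with triadimefon and 0.04 with myclobutanil. Pex11a also lost its call without myclobutanil 1, 3 or 5, and Crat kept it only without triadimefon 1 or 4.

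Hacl1, a peroxisomal lyase of alpha oxidation, had the largest difference of all called genes. It scored 1.84, 2.52, 2.30, 2.05 and 3.17 with triadimefon, 1.64, 1.60, 1.79, 1.70 and 1.82 with myclobutanil and 1.73, 2.12, 1.92, 1.74 and 2.15 in controls. The lowest triadimefon array lay just above the highest myclobutanil array. The difference was 0.67 ± 0.17 (adjusted p = 0.037), and the call was kept only without triadimefon 1 or 4 (otherwise up to 0.19, with 0.47 units without triadimefon 5). Acss2, which makes acetyl-CoA from acetate for lipid synthesis, had 2.62, 2.52, 2.65, 2.68 and 2.22 with triadimefon, 1.82, 1.89, 2.14, 1.90 and 1.96 with myclobutanil and 2.13, 2.39, 2.07, 1.96 and 1.93 in controls. Its treated groups did not overlap. The difference was 0.59 ± 0.09 (adjusted p = 0.0013), it stayed called in all 10 repeats, and it was the only called member of 30 genes of fatty acid synthesis, among which Fasn, the fatty acid synthase, did not pass (-0.14, 0.89).

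Of 23 measured genes of bile acid synthesis and transport 1 was higher with triadimefon than with myclobutanil and 0 lower. Over all genes 0.443% were higher and 1.22% lower. Against the controls 1 rose and 2 fell with triadimefon, and 0 rose and 2 fell with myclobutanil, with the same counts without control 2. Of all genes 2.60% rose and 8.31% fell with triadimefon, and 3.92% rose and 6.86% fell with myclobutanil. The 2 that fell with each compound (8.7% of the list) lie near these shares. Without control 2, 1.79% of all genes rose and 3.19% fell with triadimefon, and 4.40% rose and 3.02% fell with myclobutanil. Cyp8b1, which sets the share of cholic acid, had 1.09, 1.24, 1.48, 1.35 and 2.18 with triadimefon, 0.76, 0.98, 0.84, 0.80 and 0.97 with myclobutanil and 2.21, 3.03, 2.41, 2.29 and 2.41 in controls. The 3 groups did not overlap. It fell against the controls by 1 ± 0.15 with triadimefon (adjusted p = 3.4e-05) and fell by 1.60 ± 0.15 with myclobutanil (2.5e-09), and the compounds differed by 0.60 ± 0.15 (0.032). That call was kept only without triadimefon 1, 2 or 4 (otherwise up to 0.17, with 0.42 units without triadimefon 5). Cyp7a1, the first enzyme of bile acid synthesis, fell by 1.34 ± 0.27 with triadimefon (adjusted p = 0.0014) and fell by 1.60 ± 0.27 with myclobutanil (9.3e-05). Between the compounds the difference was 0.26 (95% interval -0.28 to 0.81, adjusted p = 0.82).

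Of other lipid genes, Pltp, which moves phospholipid between lipoproteins, was higher with triadimefon (0.31 ± 0.07, adjusted p = 0.0098) and stayed called in all 10 repeats. It fell against the controls by 0.41 ± 0.07 with myclobutanil (6e-05) and differed by -0.09 with triadimefon (0.44). Nceh1, a cholesterol ester hydrolase (0.43 ± 0.10, 0.017), lost its call without triadimefon 5 (0.28, adjusted p = 0.077) or myclobutanil 3.

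**Figure D4:**
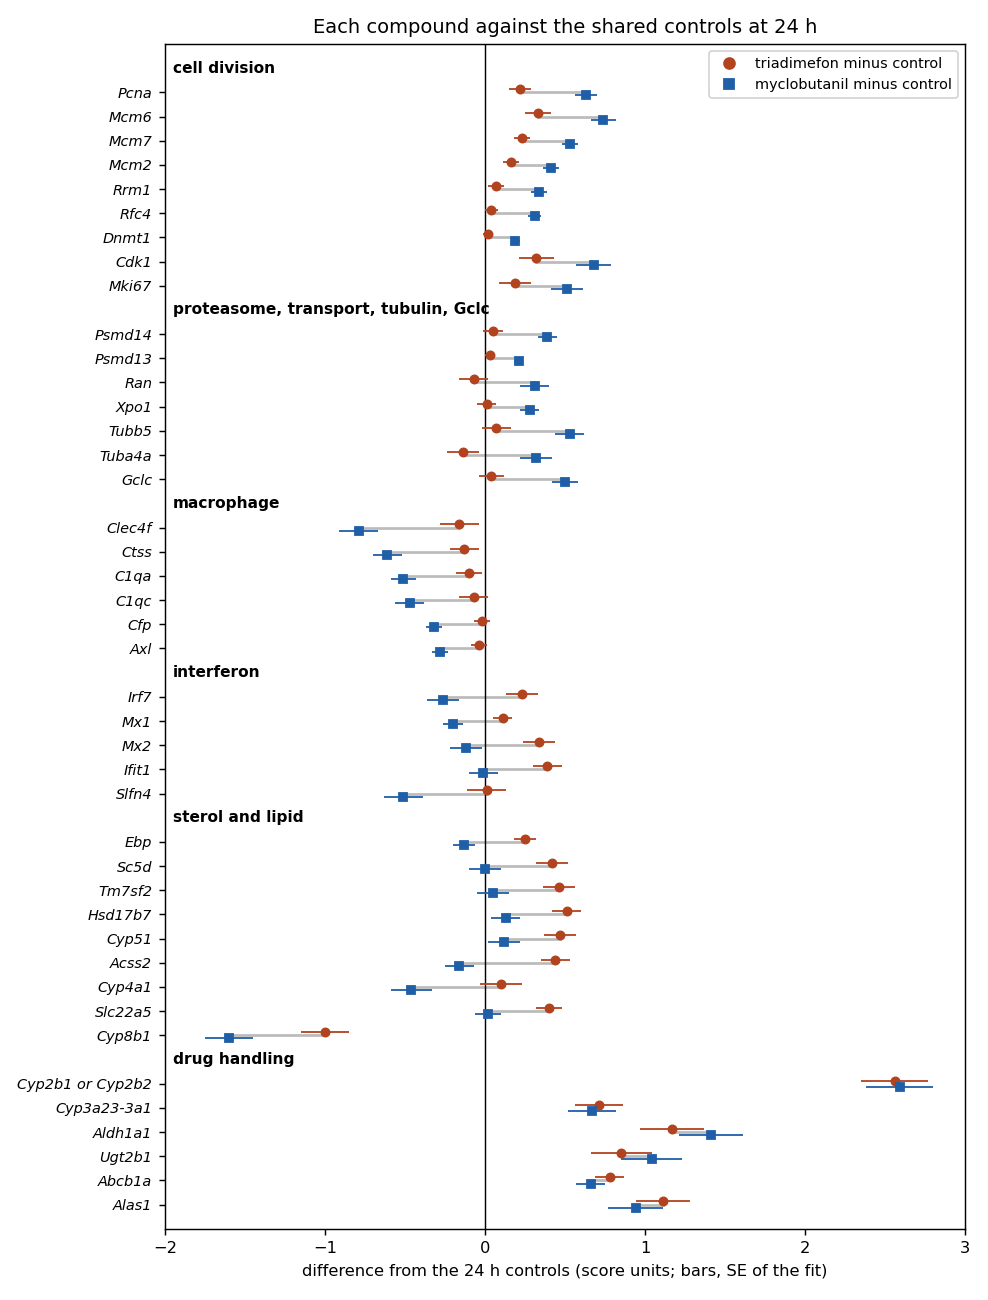
Difference of each compound from the shared 24 h controls, in score units, for 42 genes in 6 groups, with triadimefon as circles and myclobutanil as squares and the SE of the fit as bars. The circles lie nearer 0 than the squares for replication, proteasome and macrophage genes, the squares lie nearer 0 for most sterol genes, and both lie together far to the right for Cyp2b1 or Cyp2b2.

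Several single genes completed the lists of highest and lowest differences. Fmo5, a flavin monooxygenase (0.55 ± 0.13, adjusted p = 0.025), was higher with triadimefon and lost its call without triadimefon 5 (0.44, 0.12) or myclobutanil 1. Cyp26b1, which clears retinoic acid (0.50 ± 0.12, adjusted p = 0.032), was higher, kept its call only without myclobutanil 4 or triadimefon 1 or 3 (otherwise up to 0.12), and had a dimmer probe set at 0.08 (0.4). Gadd45b, a growth regulator that CAR induces in rodent liver, scored 0.52, 0.87, 0.79, 0.67 and 1.44 with triadimefon, 0.02, 0.09, 0.21, 0.36 and 0.74 with myclobutanil and -0.05, -0.01, -0.03, -0.02 and -0.02 in controls. Myclobutanil 5 reached into the range of triadimefon, so the treated groups overlapped, and each treated array lay above every control array. The difference was 0.57 ± 0.11 (adjusted p = 0.0032), held in all 10 repeats, and did not pass in the fit on the 10 arrays (0.18).

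Among the lower genes, Rcan2, an inhibitor of calcineurin, scored 0.17, 0.02, 0.28, 0.06 and 0.29 with triadimefon, 0.47, 0.41, 0.55, 0.41 and 0.61 with myclobutanil and 0.34, 0.64, 0.56, 0.53 and 0.50 in controls. Here triadimefon was the compound that left the controls, and its arrays lay below all others. The difference was -0.33 ± 0.06 (adjusted p = 0.0032). Mmgt1, a membrane protein of the endoplasmic reticulum, scored 1.09, 1.27, 1.32, 1.12 and 1.18 with triadimefon, 1.48, 1.52, 1.52, 1.58 and 1.52 with myclobutanil and 0.92, 1.11, 1.07, 0.94 and 1.06 in controls. The myclobutanil arrays lay above all others. The difference was -0.33 ± 0.06 (adjusted p = 0.0025), and it passed also in the fit on the 15 arrays (0.026). Rcan2 and Mmgt1 stayed called in all 10 repeats and each had a second called probe set, at -0.24 (0.002) and -0.33 (0.0091).

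Cry1, a repressor of the circadian clock (-0.34 ± 0.08, adjusted p = 0.017), fell against the controls by 0.36 ± 0.08 with triadimefon (0.0021) and differed by -0.02 with myclobutanil (0.9). Its call was lost without myclobutanil 1 or 2 or triadimefon 2 (up to 0.10). Swi5, a recombination factor (-0.37, adjusted p = 0.010), lost its call without myclobutanil 1 (0.056). Itga6, a laminin receptor subunit (-0.37, adjusted p = 0.032), and Ddc, which makes dopamine (-0.33, 0.033), lost theirs in 6 and 7 of the 10 repeats, Itga6 keeping it without myclobutanil 4 or 5 or triadimefon 1 or 3 and Ddc without myclobutanil 2 or triadimefon 3 or 4 (otherwise up to 0.15). The other probe sets of Itga6 and Ddc did not pass.

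Other lists had 1 called member or none. Beside the shares of all genes called (0.443% higher and 1.22% lower), 1 call says little about its list. Hspb1, a small heat shock protein (-0.40, adjusted p = 0.017), was the only one of 33 heat shock genes and lost its call without myclobutanil 1 or 2 or triadimefon 5 (up to 0.084). Cox5a of the respiratory chain (-0.14, adjusted p = 0.017) was 1 of 45, lost without myclobutanil 1 or triadimefon 5 (up to 0.065), and Nhp2, which modifies ribosomal RNA (-0.24, 0.012), was 1 of 39 ribosome genes, lost without myclobutanil 5 or triadimefon 2 (up to 0.064). Hibch of valine breakdown (-0.18, adjusted p = 0.017) lost its call without myclobutanil 3 or triadimefon 1 (up to 0.066). The kinase Jak2 (0.10, adjusted p = 0.031) kept its call only without triadimefon 1 (otherwise up to 0.094), and the nuclear receptor Ppard (-0.13, 0.021) lost it without myclobutanil 1, 3 or 5 or triadimefon 4 or 5 (up to 0.10), with a dimmer probe set at -0.01 (0.94).

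Drug-metabolising genes had no call between the compounds in 3 lists. Of 34 measured drug P450s 0 were called in limma at 24 h, of 21 glucuronidation and sulfation genes 0, and of 20 glutathione transferases 0, counts that lie near the shares of all genes called (0.443% higher and 1.22% lower). Over the whole array, 3340 probe sets reached an unadjusted p below 0.05. After quantile normalization 1 P450 was higher. The probe set shared by Cyp2b1 and Cyp2b2, the classic CAR targets, scored 3.95, 4.48, 4.31, 3.95 and 4.54 with triadimefon, 4.41, 4.09, 4.39, 4.44 and 4.06 with myclobutanil and 1.28, 2.21, 1.77, 1.74 and 1.45 in controls. The treated groups overlapped fully and lay far above the controls. The difference was -0.03 (95% interval -0.46 to 0.39, adjusted p = 0.98), beside rises of 2.56 ± 0.21 with triadimefon and 2.59 ± 0.21 with myclobutanil (adjusted p = 2e-10 and 6.7e-11).

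The intervals bound what the deposited scores of 5 arrays a side could show. Among probe sets with a mean score above 3, the SD within groups averaged 0.234 on the deposited scores and 0.0854 after quantile normalization. The part of this spread in the intervals was not tested. Cyp3a23-3a1, a PXR target, differed by 0.04 with an interval of -0.26 to 0.34, after rises of 0.71 ± 0.15 with triadimefon (adjusted p = 0.0017) and 0.67 ± 0.15 with myclobutanil (0.0022). Aldh1a1, which makes retinoic acid, differed by -0.24 (-0.65 to 0.17), Ugt2b1, a glucuronidating enzyme, by -0.18 (-0.56 to 0.19) and Abcb1a, a drug efflux pump, by 0.12 (-0.06 to 0.31). Alas1, which starts haem synthesis, differed by 0.18 (-0.17 to 0.52), and Cyp3a18 by 0.01 (-0.37 to 0.39). Cyp3a9 leaned towards triadimefon at 0.49 (0.03 to 0.96) and Cyp1a2 at 0.33 (0.06 to 0.61), but neither passed (adjusted p = 0.42 and 0.31). Por, which feeds electrons to P450s, scored 1.79, 1.89, 2.15, 1.97 and 3.06 with triadimefon, 1.92, 2.03, 2.02, 2.10 and 2.11 with myclobutanil and 1.11, 1.38, 1.21, 1.21 and 1.33 in controls. Triadimefon 5 was again far above the rest, and the difference was 0.14 with that array and -0.08 without it (adjusted p = 0.86 and 0.93). Glul, a glutamine synthase of cells around the central vein (0.16, -0.08 to 0.40), and Pklr, a pyruvate kinase (-0.24, -0.53 to 0.05), differed by less than the fit could show, and both fell against the controls with each compound. The 14 further genes of the panel did not pass either, with adjusted p between 0.32 for Cyp26a1 and 0.99 for Hspa1a. A p that misses the threshold does not show that the compounds act alike.

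The difference between the compounds was set against those at 6 h and 14 days. It differed from that at 6 h in 222 genes (1.56%) and from that at 14 days in 43 (0.302%). In probe sets these are 313 and 60, with 205 at 6 h without triadimefon 1 of that time, and 18 to 105 at 14 days. For 14 days the count was 105 without triadimefon 1 of 24 h, and 18 to 39 without triadimefon 2 or 3 or myclobutanil 2 or 5 of 24 h, or triadimefon 1 or 5 or myclobutanil 2 or 3 of 14 days. The median difference of the 68 replication genes was 0.003 at 6 h and 0.006 at 14 days. That of the 27 sterol genes was 0.191 at 6 h, 0.137 at 24 h and 0.019 at 14 days. At 6 h 4 of the 27 were called higher, against 36 of all 14217 genes. Idi1 (0.62, adjusted p = 0.038) and Sqle (0.50, 0.022) passed at 6 h, so the sterol difference was not particular to 24 h. Pcna differed by 0.09 at 6 h, -0.41 at 24 h and 0 at 14 days, and the change from 6 h to 24 h passed (-0.50, adjusted p = 0.0055). Gclc differed by 0.25, -0.45 and -0.08, Psmd14 by 0.14, -0.34 and -0.17, Tubb5 by 0.22, -0.45 and -0.06 and Ran by 0.20, -0.38 and -0.23 at 6 h, 24 h and 14 days. Their changes from 6 h to 24 h passed, at -0.71 (adjusted p = 6.9e-04), -0.48 (0.0014), -0.67 (0.0033) and -0.58 (0.0088). Gadd45b differed by -0.41 at 6 h, 0.57 at 24 h and 0.18 at 14 days, a change of 0.98 from 6 h (adjusted p = 3.9e-04). These 6 changes stayed called in all 20 repeats with 1 array left out.

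For Irf7, Mx2 and Mx1 the difference at 24 h exceeded that at 14 days. Irf7 differed by 0.01 at 6 h, 0.49 at 24 h and -0.24 at 14 days, Mx2 by 0.02, 0.47 and -0.30, and Mx1 by 0.04, 0.30 and -0.21. Their values at 24 h exceeded those at 14 days by 0.73 (adjusted p = 0.0082), 0.76 (0.0065) and 0.51 (0.0053), and these 3 changes stayed called in all 20 repeats that left out 1 array. None of the 3 passed at 14 days alone (adjusted p = 0.30, 0.20 and 0.14). The change passed too for Isg15 (0.66, adjusted p = 0.021), Oas1a (0.78, 0.045) and Slfn4 (0.80, 0.036), kept in 18, 7 and 9 of the 20 repeats, and not for Ifit1 (0.37, 0.26). Acss2 differed by 0.22, 0.59 and 0, and its excess at 24 h over 14 days passed (0.59, adjusted p = 0.034) and was kept in 9 of the 20 repeats (otherwise up to 0.071). Clec4f differed by 0.29, 0.64 and 0.23, with no change between times detected (adjusted p = 0.50 against 6 h and 0.36 against 14 days).

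Of the panel, Hsph1, Creld2 and Hmox1 also changed between 6 h and 24 h, while the chaperones Hspa5 (-0.39, adjusted p = 0.42) and Hspa1a (0.04, 0.96) did not pass. Hsph1, a heat shock protein, differed by 0.66 at 6 h and -0.11 at 24 h, a change of -0.77 (adjusted p = 0.003), and Creld2, of protein folding in the endoplasmic reticulum, by 0.69 and -0.17, a change of -0.85 (5.5e-04). Hmox1, which breaks down haem, differed by -0.46 at 6 h and 0.07 at 24 h, a change of 0.53 (0.002). At 6 h the array file names carry different endings, and the ending 11, shared by all 15 arrays at 24 h, is on 2 of 5 triadimefon and 2 of 5 myclobutanil arrays. With those arrays alone at 6 h, 2 probe sets in place of 313 changed between 6 h and 24 h. Hmox1 passed there (0.81, adjusted p = 1.1e-04), while Gclc (-0.70, 0.13), Psmd14 (-0.38, 0.26), Pcna (-0.45, 0.31), Gadd45b (0.95, 0.092), Creld2 (-0.73, 0.13), Hsph1 (-0.61, 0.39), Tubb5 (-0.62, 0.28) and Ran (-0.55, 0.32) kept their direction and did not pass.

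**Figure D5:**
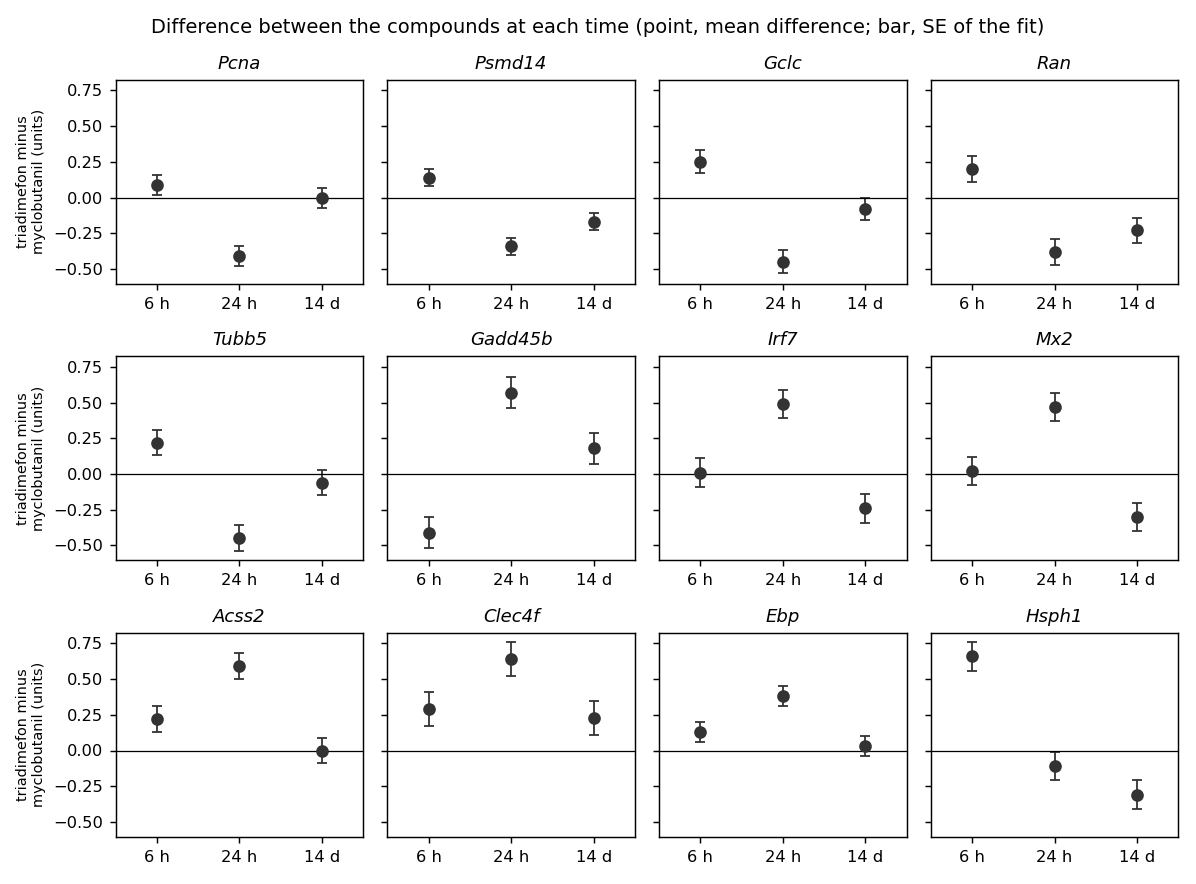
Difference between triadimefon and myclobutanil at 6 h, 24 h and 14 days, in score units, for 12 genes, with the SE of the fit as bars. Pcna, Psmd14, Gclc, Ran and Tubb5 lie above 0 at 6 h and below 0 at 24 h, Irf7 and Mx2 lie near 0 at 6 h, above 0 at 24 h and below 0 at 14 days, and Hsph1 lies highest at 6 h.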

How the data were processed

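Liver RNA was measured on 1-colour Affymetrix rat genome arrays, and the deposited matrix holds 1 score per probe set and array, on a log-type scale whose base and summarisation are not given in the sources used here. Medians of the deposited scores lay near 0 on every array, and the main fit used the scores without further normalization. The bright ends of the arrays differed, as given above. Of 31099 probe sets 57 Affymetrix controls were left out. The platform annotation gave 20826 probe sets 1 gene, 436 several and 9780 none. For a gene with several, the one with the highest mean over 45 arrays was taken.

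limma 3.58.1 in R 4.3.3 fitted 1 mean per group to all 45 arrays (9 groups of 5, 36 residual degrees of freedom), with two-sided tests and Benjamini-Hochberg adjustment over 31042 probe sets. Values after ± are the SE of the fit. The 15 highest and 15 lowest called genes without overlap, up to 4 called genes of each list with the smallest p, and a panel were named by rule, and others were picked after their values were seen. The members, lists and panel were chosen with earlier results of these data known. The plan foresaw log2 or linear values, and the scores were used as deposited. The number of arrays limits the precision. Alternatives were other normalizations, a level filter, fits on fewer arrays, array weights, a replicate block, stricter thresholds and leaving out each array. The fit was tested on simulated data.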

Additional observations from a re-analysis of the deposited data

Results flagged for a closer look

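Among 327 groups of 5 arrays, 3 for each of the 109 genes examined, 26 held 1 array whose gap to the nearest other, over the range of the group, passed the 95% critical value of Dixon's test, a level that by its construction passes about 1 group in 20 by chance. Triadimefon 1 stood apart for Hspa5 at 2.92 (others 3.14 to 3.18). Triadimefon 2 stood apart for Nhp2 at 0.89 (others 1.02 to 1.06). Triadimefon 4 stood apart for Isg15 at 0.62 (others 0.97 to 1.11). Triadimefon 5 stood apart for Acot1 at -0.16 (others -0.58 to -0.49), Cyp4a1 at 3.23 (others 2.14 to 2.44), Fasn at 1.21 (others 2.20 to 2.35), Fmo5 at 3.02 (others 2.39 to 2.56), Gss at 0.85 (others 0.78 to 0.80), Hsd17b7 at 1.10 (others 1.51 to 1.57), Idi1 at 2.19 (others 2.79 to 3.02), Nceh1 at 1.33 (others 0.43 to 0.68), Pex11a at 1.24 (others 0.65 to 0.77), Por at 3.06 (others 1.79 to 2.15) and Sqle at 1.14 (others 1.59 to 1.70). Myclobutanil 2 stood apart for Ddc at 1.90 (others 2.06 to 2.11). Myclobutanil 3 stood apart for Cd14 at 2.16 (others 1.86 to 1.93), Gpnmb at 1.05 (others 0.60 to 0.71) and Psmd14 at 1.99 (others 1.82 to 1.86). Control 2 stood apart for Cyp3a23-3a1 at 3.93 (others 3.32 to 3.47), Cyp8b1 at 3.03 (others 2.21 to 2.41), Ebp at 2.68 (others 2.14 to 2.28), Gpnmb at 0.69 (others 0.31 to 0.41), Insig2 at 3.46 (others 2.76 to 2.88), Nceh1 at 0.54 (others 0.32 to 0.37) and Tuba4a at 1.98 (others 1.45 to 1.55). Control 5 stood apart for Cdk1 at 0.59 (others -0.01 to 0.12).

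The difference between triadimefon and myclobutanil at 24 h differed from that at another time in 44 tests among the 109 genes, in limma's test of the difference itself, with adjusted p in brackets. Against 6 h it moved towards triadimefon for Cirbp by 0.25 (0.0014), Cpt1a by 0.88 (0.036), Gadd45b by 0.98 (3.9e-04), Hmox1 by 0.53 (0.002) and Nceh1 by 0.62 (0.014). Against 6 h it moved towards myclobutanil for Cox5a by -0.22 (0.0067), Creld2 by -0.85 (5.5e-04), Dnmt1 by -0.22 (0.005), Gclc by -0.71 (6.9e-04), Gss by -0.28 (0.024), Hspb1 by -0.57 (0.016), Hsph1 by -0.77 (0.003), Itga6 by -0.64 (0.0068) and Kpnb1 by -0.31 (0.0045). The same direction against 6 h held for Mcm2 by -0.29 (0.014), Mcm6 by -0.50 (0.014), Mcm7 by -0.38 (0.0072), Mmgt1 by -0.44 (0.0026), Mpst by -0.39 (0.029), Nhp2 by -0.32 (0.018), Pcna by -0.50 (0.0055), Psmd13 by -0.22 (0.0092) and Psmd14 by -0.48 (0.0014). It held as well for Ran by -0.58 (0.0088), Rcan2 by -0.37 (0.018), Rfc4 by -0.26 (0.021), Rrm1 by -0.28 (0.021), Tpm1 by -0.36 (0.0049), Tuba4a by -0.67 (0.0092), Tubb5 by -0.67 (0.0033), Tubg1 by -0.21 (0.0092) and Xpo1 by -0.41 (0.0048). It held as well for Xrcc5 by -0.25 (2.6e-04). Against 14 days it moved towards triadimefon for Acss2 by 0.59 (0.034), Crat by 0.55 (0.034), Irf7 by 0.73 (0.0082), Isg15 by 0.66 (0.021), Mx1 by 0.51 (0.0053), Mx2 by 0.76 (0.0065), Oas1a by 0.78 (0.045) and Slfn4 by 0.80 (0.036). Against 14 days it moved towards myclobutanil for Rfc4 by -0.35 (0.0057), Rrm1 by -0.35 (0.012) and Xrcc5 by -0.17 (0.033). At 6 h the arrays differ in the ending of their file names, and whether this has a part in the changes against 6 h was not tested beyond the values given above for arrays of 1 ending.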

How the results depend on the processing

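The scores carry no stated base, the doses differ and precision is bounded by 5 arrays a group. No called result reversed, while differences that did not pass could, as for Por. Of 328 probe sets called between the compounds, the count was 1117 after quantile normalization (352 higher, 765 lower), 757 with array weights, 190 on the 10 arrays, 7 on the 15 arrays at 24 h, 216 on those without control 2, 631 on the 15 after quantile normalization, 102 at an adjusted p under 0.01 and 4 of at least the size that is 1.5-fold if the scale is log2, 159 to 457 with 1 of the 10 arrays left out and 492 without control 2. With the replicate number as a block on the 15 arrays it was 7. The numbers are not known to pair the rats. Same-numbered arrays of the compounds correlated between -0.03 and 0.23, 1 of 5 over 0.1, and 1 of 5 best with its own number. So few arrays cannot exclude a pairing.

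Against controls, triadimefon changed 1523 probe sets on the 15 arrays, 1335 with the replicate block, 944 at 0.01, 70 of at least that size and 1159 to 3233 with 1 array left out. Myclobutanil changed 1553, 1368, 1130 and 59 under the same settings, and 1717 to 3154. The change against 6 h gave 921 probe sets after quantile normalization, 2 with arrays of ending 11 and 205 to 349 with 1 array left out, and that against 14 days 277 and 18 to 105.

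On the 15 arrays each list named next had 0 calls. After quantile normalization counts were 30 for DNA replication, 25 proteasome, 10 glutathione, 11 macrophage, 9 sterol, 12 fatty acid oxidation and 1 P450. With the 15 arrays as well they were 4 replication, 18 proteasome, 3 tubulin, 7 glutathione and 1 P450. The same setting gave 9 macrophage, 7 interferon, 5 sterol and 4 fatty acid oxidation calls. Its macrophage calls ran both ways, with 8 higher and 1 lower. The glutathione calls ran both ways after quantile normalization, with 5 higher and 5 lower on all arrays and 3 higher and 4 lower on the 15. On the 10 arrays they were 0 replication, 3 tubulin, 3 macrophage, 3 interferon and 0 fatty acid oxidation. With 1 array left out they ran from 10 to 33 for replication, 2 to 4 proteasome, 2 to 5 tubulin, 2 to 4 glutathione, 3 to 9 macrophage, 3 to 10 interferon, 1 to 10 sterol and 1 to 8 fatty acid oxidation. The alternatives without control 2, those of quantile normalization on fewer arrays, the lists on 10 or 15 arrays the changes between times with 1 array left out and the list counts against controls without control 2 were chosen after seeing the data. The cause of each change was not tested.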
